A study of Mus musculus with 4 samples.

Results

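Expression of 9 genes known from mesothelium was measured in 4 RNA-sequencing libraries of mouse uterus. The genes are Upk3b, Upk1b, Msln, Lrrn4, Nkain4, Gpm6a, Wt1, Bnc1 and Muc16. They are 9 of the 21993 genes in the files, found by their symbols, and each symbol matched 1 gene. They were chosen by their FPKM in these same libraries, in which they move together, so their levels and their difference between the genotypes are given as a description, without a test. The labels call the material uterine NK cells, sorted for CD45 and NK1.1 and against CD3, from females mated with B6 males and taken at gd11.5 of gestation. One genotype, Ncr1Cre, expresses Cre recombinase under control of Ncr1, a gene of NK cells and related innate lymphoid cells, and the other lacks Cre and is called control here, with 2 libraries each. Whether the 2 libraries of a genotype are separate mice is not stated, so p-values cover the spread between libraries only, which could be technical.

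Mesothelium is the single flat cell layer that covers the serosal surfaces of the body cavities and of the organs in them, the uterus included. Its cells arise from mesoderm and carry both epithelial features, such as keratins and apical microvilli, and mesenchymal ones. Mesothelin, the product of Msln, is a surface protein that binds the mucin MUC16 (CA125), and Wt1 encodes a zinc-finger transcription factor that is widely used as a mesothelial marker. Several of the genes are also known from other places: Wt1 from decidual stroma, Upk1b from the bladder lining and Gpm6a from neurons.

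All 9 genes were lower in the Ncr1Cre libraries, and their summed level was 3.0-fold lower. Values are FPKM, which are fragment numbers per kilobase of transcript scaled for sequencing depth, so levels of different genes can be set side by side. The sum over the 9 genes was 296 and 282 FPKM in control and 98.8 and 93.6 in Ncr1Cre. In 9 of 9 genes both Ncr1Cre libraries stood below both control libraries, while 29.9% of all 11762 genes whose mean reached 1 FPKM did so. Nothing is read from that count, since it comes from the contrast that chose the genes. The median difference of the 9 genes was -1.47 (Ncr1Cre minus control, log2 of FPKM + 1), and that of all genes at this level was 0.11. In such bulk libraries fewer cells of a type and less RNA per cell cannot be told apart.

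**Figure D1:**
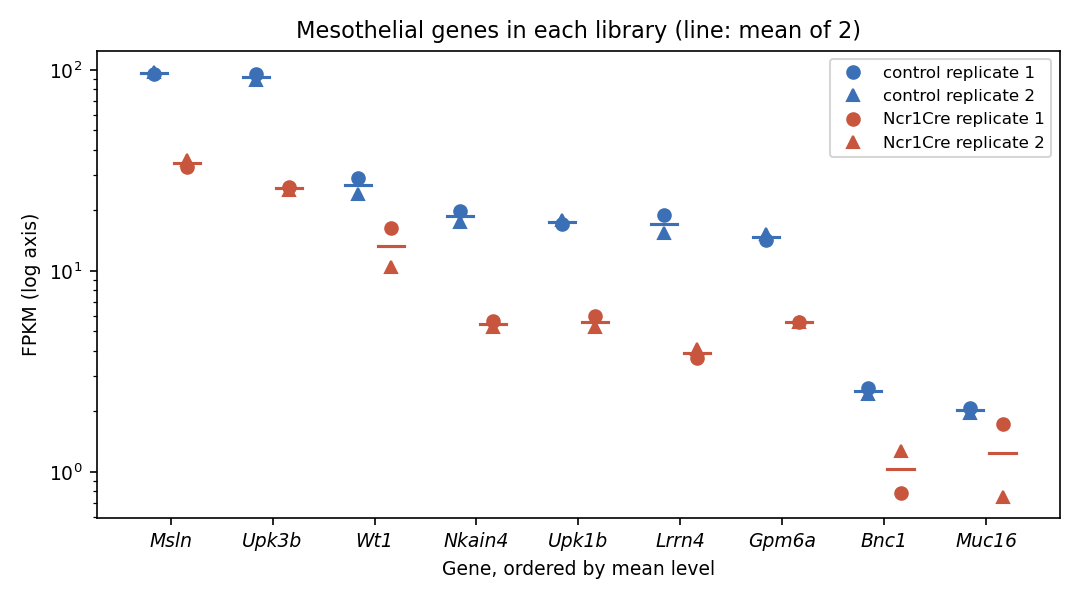
FPKM of each of the 9 genes (log axis) in each library, with circles for replicate 1, triangles for replicate 2 and a line at the mean of 2 libraries. Every Ncr1Cre library (red) lies below both control libraries (blue) of the same gene, with the narrowest gap in Muc16 and the widest in Lrrn4.

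Among the surface proteins, Msln and Upk3b were the most abundant of the 9 genes. Msln measured 95.7 and 97.7 FPKM in control and 33.0 and 35.6 in Ncr1Cre, a 2.82-fold lower mean. Upk3b, which encodes a uroplakin-family membrane protein, stood at 95.9 and 89.5 in control and at 26.2 and 25.3 in Ncr1Cre, 3.60-fold lower. The control libraries of both genes lay within one range, whereas in Ncr1Cre both values of Upk3b were below both of Msln. Upk1b, a tetraspanin of the uroplakin group, stood at 17.0 and 17.9 in control and at 5.94 and 5.24 in Ncr1Cre, 3.13-fold lower. For these 3 genes the replicates of a genotype differed by at most 1.13-fold. Muc16, the mucin that mesothelin binds, was the lowest of the 9, at 2.09 and 1.96 in control and at 1.74 and 0.75 in Ncr1Cre. Its mean was 1.63-fold lower, but its Ncr1Cre replicates were 2.30-fold apart and the higher of them was only 1.13-fold below the lower control library. The log2 difference of Muc16 was -0.46, which became -0.14 without replicate 2 of Ncr1Cre, -0.79 without replicate 1 of Ncr1Cre and -0.76 with a pseudocount of 0.1. The Muc16 identifier in the files is not in the annotation used for transcript lengths, so its per-kilobase level rests on a gene model not seen here.

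The other membrane proteins are better known from the nervous system or from ion transport. Lrrn4, a leucine-rich repeat membrane protein, stood at 19.0 and 15.4 FPKM in control and at 3.71 and 4.10 in Ncr1Cre. This was the largest fold of the 9 genes, 4.41, and the lower control library was 3.75-fold above the higher Ncr1Cre library. Nkain4, which encodes a protein that interacts with the sodium pump, stood at 19.9 and 17.6 in control and at 5.65 and 5.28 in Ncr1Cre, 3.43-fold lower. Gpm6a, a neuronal membrane glycoprotein, stood at 14.2 and 15.3 in control and at 5.57 and 5.55 in Ncr1Cre, 2.65-fold lower. In control these 3 genes and Upk1b held neighbouring levels, and Nkain4, Upk1b and Lrrn4 overlapped in their values. In Ncr1Cre the values of Nkain4 and Gpm6a lay inside the range of Upk1b, while both values of Lrrn4 were below those of the other 3 genes.

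The transcription factors showed smaller folds than most of the surface proteins. Wt1 stood at 29.1 and 24.2 FPKM in control and at 16.3 and 10.4 in Ncr1Cre, 2.0-fold lower. Its Ncr1Cre replicates were 1.56-fold apart and its control replicates 1.2-fold, so the genotypes were separated by 1.49-fold at the nearest libraries. Bnc1, which encodes the zinc-finger protein basonuclin 1, stood at 2.60 and 2.43 in control and at 0.78 and 1.28 in Ncr1Cre, 2.44-fold lower. Its Ncr1Cre replicates were 1.64-fold apart, and the log2 difference of -0.80 became -1.25 with a pseudocount of 0.1. The 3 genes with more than 1.5-fold between the Ncr1Cre replicates were thus Wt1, Bnc1 and Muc16, of which Wt1 and Muc16 were higher in replicate 1 and Bnc1 in replicate 2.

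The makeup of the summed level also differed in these genes. Wt1 held 9.86% and 8.58% of the 9-gene sum in control and 16.5% and 11.1% in Ncr1Cre. Lrrn4 held 6.44% and 5.46% in control and 3.75% and 4.38% in Ncr1Cre. Upk3b held 32.5% and 31.7% in control against 26.5% and 27.1%. Shares of Msln overlapped between the genotypes, at 32.4% and 34.6% in control and 33.4% and 38.1% in Ncr1Cre. Wt1 therefore took a larger share, and Lrrn4 and Upk3b a smaller share, of a sum that was itself lower. Against all genes at this level, Msln and Upk3b lay at the 92.8 and 92.1 percentiles of mean FPKM, Wt1 at 77.4, the next 4 genes at 59.2 to 64.4, and Bnc1 and Muc16 at 9.46 and 8.03.

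RefSeq promoter windows (GRCm38.p6, 250 bases before to 50 after the annotated start) were available for 5 of the 9 genes, in 6 windows. The windows of the genes with the largest folds, Upk3b and Lrrn4, and of the transcription factor gene Bnc1 are printed because these genes were lower together while their windows differ in base composition. The Upk3b window lies at chr5:136038246-136038545 on the plus strand, the Lrrn4 window at chr2:132880813-132881112 on the minus strand and the Bnc1 window at chr7:81992250-81992549 on the minus strand. Capitals mark matches on either strand to any of 4 motifs. The first, GTGGGNG, is the core of sites bound by WT1. The next, GGAATG, is the core of sites bound by TEAD factors. The others are the GC box, GGGCGG, with which a WT1 core can overlap, and the TATA box, written TATAAA.
Upk3b: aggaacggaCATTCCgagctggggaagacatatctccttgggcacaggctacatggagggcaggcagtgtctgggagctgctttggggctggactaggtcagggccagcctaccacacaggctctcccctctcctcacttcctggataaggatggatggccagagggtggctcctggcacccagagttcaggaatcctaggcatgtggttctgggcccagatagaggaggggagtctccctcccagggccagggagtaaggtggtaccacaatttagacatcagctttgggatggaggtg
Lrrn4: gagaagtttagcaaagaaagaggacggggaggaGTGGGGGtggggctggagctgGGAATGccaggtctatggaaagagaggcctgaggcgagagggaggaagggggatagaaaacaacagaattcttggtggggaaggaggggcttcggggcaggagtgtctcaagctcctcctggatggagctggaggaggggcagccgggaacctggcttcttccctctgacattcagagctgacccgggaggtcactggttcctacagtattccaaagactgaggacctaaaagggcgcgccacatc
Bnc1: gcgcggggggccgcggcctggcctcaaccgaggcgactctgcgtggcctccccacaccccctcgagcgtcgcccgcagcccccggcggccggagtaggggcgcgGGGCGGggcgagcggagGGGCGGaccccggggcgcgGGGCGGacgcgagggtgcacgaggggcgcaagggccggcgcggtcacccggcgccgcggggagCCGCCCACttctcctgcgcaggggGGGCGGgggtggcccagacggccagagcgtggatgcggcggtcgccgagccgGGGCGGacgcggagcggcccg

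The Bnc1 window was 83.3% G and C with 50 CpG dinucleotides, against 58.7% and 2 in Upk3b and 58% and 7 in Lrrn4. The median of all 32851 windows was 52.7% and 7. The TEAD core occurred in 3 of the 6 windows (Upk3b, Lrrn4 and 1 of the 2 windows of Gpm6a) and in 14.7% of all windows. The WT1 core occurred in 2 of the 6 (Lrrn4 and Bnc1) and in 31.6% of all. GC boxes occurred in 2 of the 6 (Bnc1, with 6 matches, and Gpm6a) and in 35.7% of all, and the TATA box in 1 of the 6 (Gpm6a) and in 13.6% of all. The WT1 core of Bnc1 overlapped one of its GC boxes, and the Muc16 window held no match to any of the 4. These counts describe letters in 6 windows and not binding.

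Depth and the sort markers bear on all of these values. The libraries held about 20950000 to 38540000 fragments, estimated from whole-fragment steps in low values. At these totals the 8 genes with an annotated length rested on about 41 to 13052 fragments per library, with the fewest in Nkain4 and Bnc1 and the most in Upk3b. This range depends on the transcript length assumed. The 41 is Nkain4 in replicate 2 of Ncr1Cre with its shortest transcript (341 bases), against 113 with its longest (950 bases). The lowest value of Bnc1 was 95. The NK-cell genes were low in the same libraries: Ncr1 was listed at 0 and 0.15 FPKM in Ncr1Cre and at 0.14 and 0.36 in control, and Klrb1c, the gene of NK1.1, stood at 0.45 to 0.97 over the 4 libraries. Ptprc, which encodes CD45, was 4.39 and 5.16 in Ncr1Cre and 2.89 and 2.57 in control. The summed level of 11 NK-cell genes was 32.6 and 33.1 in Ncr1Cre and 22.7 and 23.0 in control, below that of the 9 mesothelial genes in every library. Of the 5 NK-cell genes tested, 3 rose (Ptprc, Il2rb and Prf1) and 0 fell, where 30.9% of all tested genes rose and 17.6% fell. The count that rose was 2 after median rescaling, quantile normalization or equal FPKM totals per library, and 1 with a filter at 5 FPKM. It was also lower when some single libraries were left out, so nothing is read from it. Over all genes tested with limma, 2071 fell and 3638 rose, and 3037 fell and 2662 rose after the libraries were rescaled to one median.

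Marker genes of smooth muscle, stroma and epithelium differed between the same libraries. Smooth-muscle genes fell in 8 of 8 tested of 10 (median log2 fold change -2.70), where 17.6% of all tested genes fell, and their sum was 222 and 215 FPKM in Ncr1Cre against 607 and 595 in control. Des, a muscle intermediate filament gene, made up much of that sum at 143 ± 0.62 against 250 ± 6.75 (SD, n = 2). Myocd and Lmod1 were below the filter but not at 0. The contractile actin gene Actg2 fell from 81.2 ± 0.50 to 5.99 ± 0.71 (adjusted p = 0.000126, limma), a larger fold than that of any of the 9 genes. Stromal genes fell in 11 of 11 (median -1.16), with sums of 14599.5 and 14600.0 in Ncr1Cre and 32727 and 33287 in control. Epithelial genes rose in 11 of 12 (median 2.13), where 30.9% of all tested genes rose, with sums of 47298 and 50222 in Ncr1Cre and 9719 and 9854 in control, most of it the secretory gene Prap1. Macrophage genes rose in 7 of 7 (4 with a filter at 5 FPKM, which fewer of them reach), with sums of 98.8 and 97.7 in Ncr1Cre and 28.1 and 30.1 in control. Of 8 endothelial genes 6 were tested, 2 rose and 2 fell, where 30.9% of all tested genes rose and 17.6% fell. With no filter 2 rose and 0 fell, and with a filter at 5 FPKM 1 rose and 1 fell. Both counts were also lower in some fits with 1 library left out. The endothelial sums were 28.9 and 31.3 in Ncr1Cre against 21.6 and 21.3 in control. Of the endothelial sum, Cdh5 was 13.6 in Ncr1Cre and 3.18 in control (means of 2 libraries). The part of any of these lists in the lower mesothelial genes was not tested.

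Set against the stromal sum, the 9-gene sum was 0.68% and 0.64% in Ncr1Cre and 0.90% and 0.85% in control. The genotypes did not overlap in this ratio, and the gap was narrower than that of the 9-gene sum itself. Against the smooth-muscle sum it was 44.6% and 43.6% in Ncr1Cre and 48.7% and 47.4% in control. Against the epithelial sum it was 0.21% and 0.19% against 3.04% and 2.86%. Against the sum of 30 other genes known from mesothelium it was 1.30% and 1.27% in Ncr1Cre and 6.33% and 6.11% in control. With Des and C3 kept in the sums, the ratios to stroma and smooth muscle differed less between the genotypes than those to epithelium and other mesothelial genes. The smooth-muscle ratio depends on Des, at 143 of a mean sum of 218 FPKM in Ncr1Cre and 250 of 601 in control. Des fell 1.74-fold, while folds of the 8 tested genes of that list ran from 1.21 (Smtn) to 13.6 (Actg2). In the list of other mesothelial genes, which holds several keratins, C3 was 3932 of 7503 FPKM in Ncr1Cre and 1167 of 4644 in control. Ratios without Des or C3 were not computed.

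**Figure D2:**
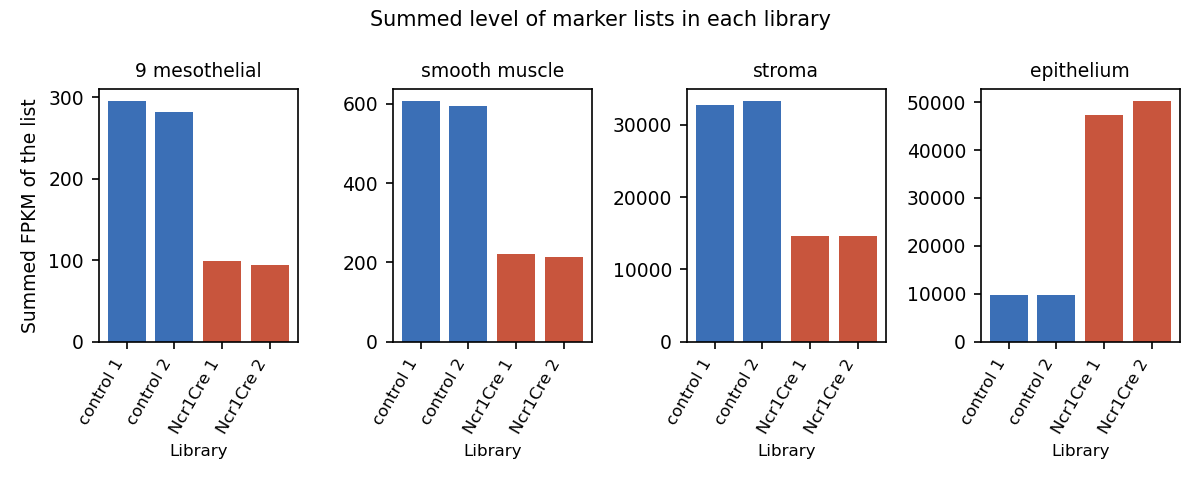
Summed FPKM of the 9 mesothelial genes and of the smooth-muscle, stromal and epithelial marker lists in each library (bars start at 0, blue for control and red for Ncr1Cre, a separate scale in each panel). The 9-gene sum was 282 and 296 in control and 93.6 and 98.8 in Ncr1Cre, and the epithelial sum moved the other way.

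Markers of the nervous system and of the bladder lining, where some of these genes are known, were low or moved differently. Those of stroma, where Wt1 is known, fell as given above. Of the neuronal and glial genes, Snap25 and Sox10 were listed at 0 in every library, Syt1 at 0 in 3 of 4, and 8 of 9 were below the filter. Gap43, the gene above it, stood at 4.86 ± 0.32 FPKM in Ncr1Cre and 6.10 ± 0.23 in control and did not pass the test (adjusted p = 0.067, limma), though it did after rescaling to one median (adjusted p = 0.020). Summed, the neuronal and glial list was 6.60 and 7.23 in Ncr1Cre and 7.63 and 7.52 in control. Of the bladder-lining genes, Upk3a was listed at 0 in every library and Upk2 stood at most at 0.43, while Upk1a and Krt5 rose. Their sum was 214 and 196 in Ncr1Cre and 98.2 and 86.7 in control, most of it Krt5, so this list was higher where Upk1b and Upk3b were lower.

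Another 30 genes known from mesothelium did not move in 1 direction. Of these 24 reached the filter, of which 12 fell and 9 rose (median log2 fold change -0.30). Of all tested genes 48.5% changed, as 17.6% fell and 30.9% rose. Cldn15, a claudin of tight junctions, had the largest fall, to 9.61 ± 0.25 FPKM from 29.3 ± 0.53 (SE 0.075 around a log2 fold change of -1.51, adjusted p = 0.000257, limma). Thbd, which encodes the anticoagulant receptor thrombomodulin, fell 2.21-fold from 108 ± 2.90 to 48.8 ± 0.61. Efemp1, a fibulin of the extracellular matrix, fell 2.16-fold, from 85.3 ± 3.18 to 39.4 ± 2.13. Fgf1, a fibroblast growth factor, fell 2.39-fold, from 9.16 ± 0.038 to 3.83 ± 0.31. The fall of Cldn15, 3.04-fold, was larger than the difference in Msln, Gpm6a, Bnc1, Wt1 and Muc16 and smaller than that in Lrrn4, Upk3b, Nkain4 and Upk1b. The folds of Thbd, Efemp1 and Fgf1 were larger than those of Wt1 and Muc16 and smaller than those of the other 7 genes.

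The other genes that fell were Igfbp5 and Igfbp6, which bind insulin-like growth factors, the chemoattractant gene Rarres2, Cav1 of caveolae, the mucin-type glycoprotein gene Pdpn, the Wnt agonist gene Rspo1, the transcription factor gene Tcf21 and the retinoic acid enzyme gene Aldh1a2. Pdpn fell from 64.1 ± 3.14 to 38.7 ± 4.73 FPKM, Rspo1 from 22.5 ± 2.46 to 13.5 ± 0.95 and Tcf21 from 40.3 ± 1.11 to 27.0 ± 2.02. Aldh1a2 had the smallest fall, from 159 ± 3.58 to 136 ± 2.65 (adjusted p = 0.034, limma), and its adjusted p was 0.0906 to 0.147 when any 1 library was left out. Most of these genes are expressed by fibroblasts and decidual stroma as well.

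Of the 24 tested genes of this list, 9 rose, the keratins among them, where 30.9% of all tested genes rose. The tight-junction gene Cldn15 of the same list fell, as given above. Krt8 rose from 146 ± 7.07 to 666 ± 4.77 FPKM and Krt18 from 108 ± 0.46 to 523 ± 21.6. Krt7 rose from 52.1 ± 2.09 to 129 ± 1.04, and Krt19 only 1.41-fold, from 110.1 ± 4.84 to 155 ± 3.95 (adjusted p = 0.0039, limma). The remaining rises were those of the complement gene C3 (1167 ± 76.1 to 3932 ± 158), the protease inhibitor gene Slpi, the cytoskeletal linker gene Ezr, the secreted-protein gene Dmkn and the adhesion gene Bcam. Uterine epithelium expresses these keratins too, and the epithelial list rose in the same libraries.

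Of the remaining genes, Gata6, Fgf9 and Podxl did not pass the test. Gata6, a transcription factor gene, stood at 3.55 ± 0.72 FPKM in Ncr1Cre and 4.53 ± 0.13 in control (adjusted p = 0.142, limma). Its adjusted p was 0.041 after rescaling to one median and 0.0432 without replicate 1 of Ncr1Cre. Fgf9 stood at 2.05 ± 0.15 and 2.78 ± 0.67, with an adjusted p of 0.171, and 0.0496 when every library was scaled to the same FPKM total. The filter left out Calb2, the calretinin gene, Cdh2, Tbx18, Gata4, Prg4 and Itln1, all below 1 FPKM in every library. Itln1 was listed at 0 in 3 of 4 libraries.

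**Figure D3:**
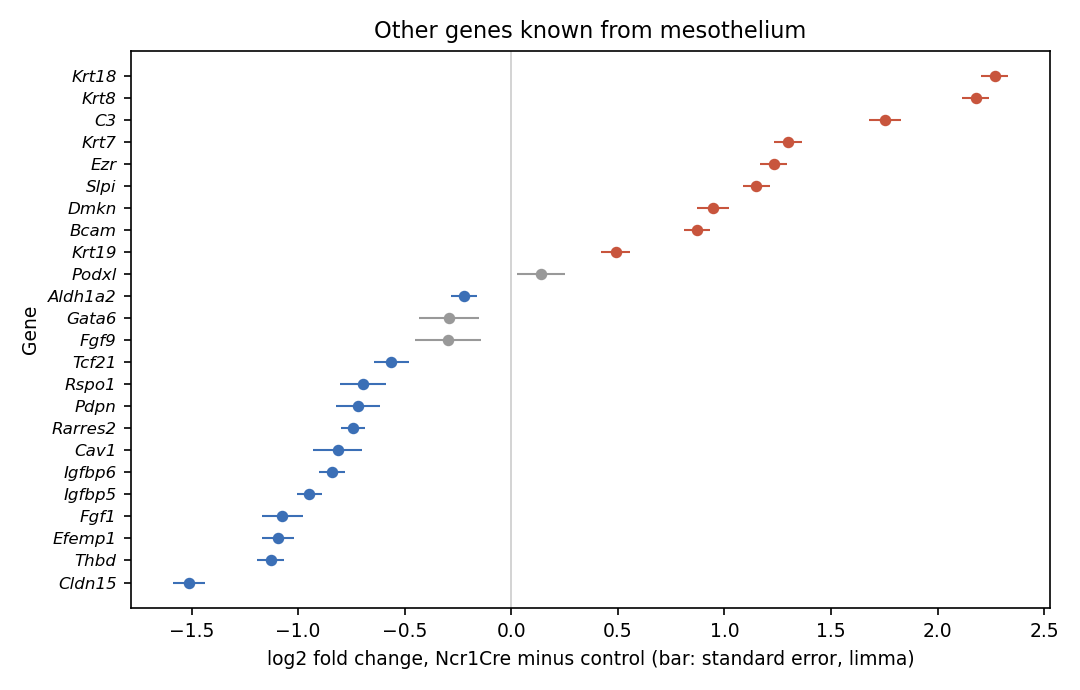
Log2 fold change (Ncr1Cre minus control, points) with its standard error (bars, limma) of the 24 tested genes known from mesothelium that are not among the 9. Blue genes fell, red genes rose and grey genes did not pass the test, with Cldn15 lowest at -1.51 and Krt18 highest at 2.27.

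Of 19 family relatives of the 9 genes 12 reached the filter, of which 4 fell and 4 rose, where 17.6% of all tested genes fell and 30.9% rose. The share that rose was near that of all genes, and the share that fell was above it. With only 12 genes tested, nothing is read from either count about the relatives. Among uroplakins, Upk1a rose from 12.2 ± 0.42 to 25.2 ± 0.72 FPKM (adjusted p = 0.000706, limma), opposite to Upk1b. Upk3bl rose from 24.3 ± 1.91 to 77.3 ± 9.46 (adjusted p = 0.000511, limma), opposite to Upk3b. The membrane mucins Muc1 and Muc4 rose as well, Muc1 from 17.9 ± 2.51 to 70.5 ± 5.93 and Muc4 from 3.2 ± 0.46 to 16.1 ± 1.14, where Muc16 was lower. Mslnl, the relative of Msln, was at most 0.18 in any library.

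Of the relatives of the neural-type membrane genes, Lrrn2, Lrrn1 and Gpm6b fell, Nkain1 did not pass the test and others were below the filter. Lrrn2 fell from 21.1 ± 0.38 to 7.16 ± 0.033 FPKM (log2 fold change -1.44, adjusted p = 0.000294, limma), beside Lrrn4. Lrrn1 fell from 1.76 ± 0.20 to 0.82 ± 0.097 (adjusted p = 0.0124, limma, and 0.065 without replicate 1 of the control), and Lrrn3 stayed below the filter. Gpm6b fell from 6.81 ± 0.013 to 4.18 ± 0.41 (adjusted p = 0.0077, limma), a 1.63-fold change. Nkain1 stood at 2.70 and 1.43 in Ncr1Cre and 3.48 and 2.42 in control, with overlapping genotypes and an adjusted p of 0.255, or 0.0378 without replicate 1 of Ncr1Cre. Nkain2 and Nkain3 were at most 0.20.

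The zinc-finger relatives gave fewer calls. Bnc2, the relative of Bnc1, stood at 3.08 and 3.33 FPKM in Ncr1Cre and at 3.21 and 7.2 in control and did not pass the test (adjusted p = 0.263, limma). Without replicate 1 of the control its adjusted p was 0.0106, so 1 library decides this value. Egr1, whose zinc fingers resemble those of Wt1, fell 1.23-fold from 580 ± 23.3 to 472 ± 24.2 (adjusted p = 0.0206, limma), with adjusted p-values of 0.0541 to 0.103 without replicate 2 of Ncr1Cre or without either control library. Egr2 and Egr3 did not pass.

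Genes tied to the function of 2 of the 9 were followed too. Of the sodium-pump subunits and their FXYD regulators, with which NKAIN proteins are associated, 8 of 10 were tested, 4 fell and 3 rose, where 17.6% of all tested genes fell and 30.9% rose. Fxyd6 fell from 33.4 ± 2.77 to 14.9 ± 0.76 FPKM and Fxyd1 from 171 ± 13 to 104 ± 5.49, while Atp1b1 rose from 13.5 ± 0.62 to 42.2 ± 1.23 and Fxyd3 from 21.9 ± 2.81 to 88.7 ± 7.90. Of 10 reported targets of Wt1, 6 were tested, 2 fell (1 when any 1 library was left out) and 1 rose (2 with no filter or with equal FPKM totals). That is close to the 48.5% of all tested genes that changed, so nothing is read from it about Wt1. Snai1, a regulator of epithelial-mesenchymal transition, fell from 15.3 ± 1.89 to 7.98 ± 0.68, Aldh1a2 fell as given above, and Spry1, an inhibitor of receptor kinase signalling, rose from 6.88 ± 0.16 to 10.9 ± 0.35. Nphs1 was listed at 0 in every library, and Podxl, Wnt4 and Bcl2 did not pass.

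**Figure D4:**
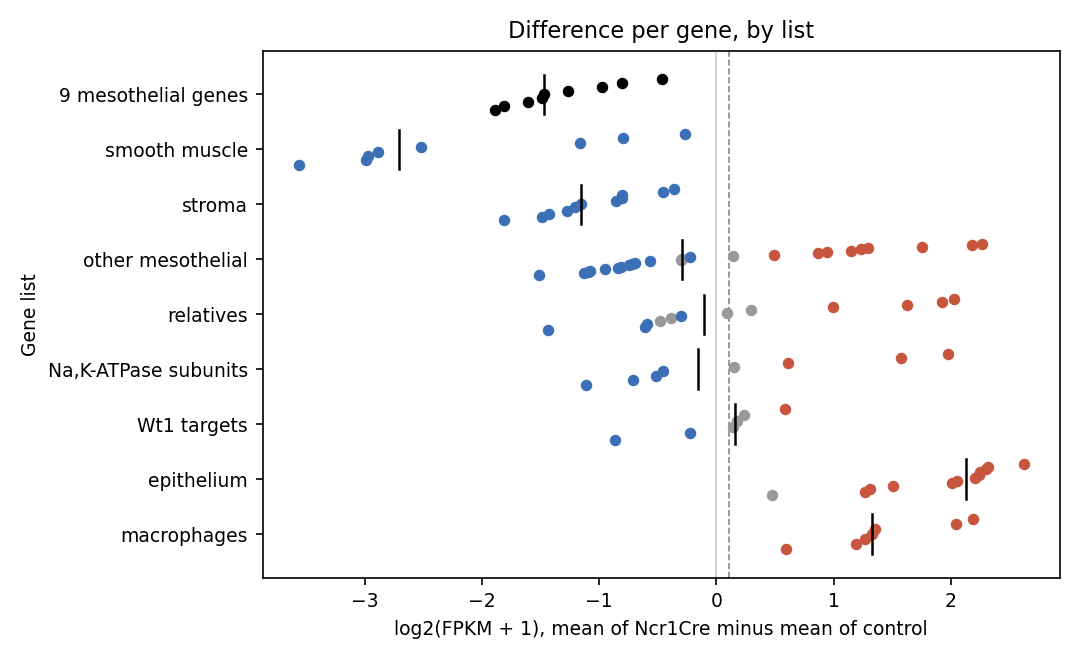
Difference of log2(FPKM + 1), mean of Ncr1Cre minus mean of control, for each tested gene of 9 gene lists, with a black bar at each list's median and a dashed line at the median of all tested genes (0.11). Blue genes fell, red genes rose, grey genes did not pass the limma test, and the 9 mesothelial genes are black because they were not tested.

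The genes with the pattern nearest to the 9-gene sum were found by the Euclidean distance between profiles of log2(FPKM + 1) over the 4 libraries, each centred on its mean. The nearest 5 were Scara5, Galnt15, Cilp, Cldn15 and Stra6, at distances of 0.072 to 0.10. Scara5, which encodes a ferritin receptor, stood at 189 and 170 FPKM in control and at 62.9 and 57.9 in Ncr1Cre. Stra6, the receptor gene for retinol-binding protein, stood at 50.7 and 46.1 in control and at 16.4 and 14.1 in Ncr1Cre. Among the 9 genes, Nkain4 was nearest to their sum (0.076), ahead of Upk1b (0.139), Msln (0.183) and Upk3b (0.234). Each of the 9 is itself part of that sum, with the largest shares in Msln and Upk3b, so these distances are not independent of it. Wt1 (0.719), Bnc1 (0.831) and Muc16 (1.18) were the farthest, with smaller differences on this scale. With 4 libraries in 2 genotypes such distances mostly reflect the size of the difference between genotypes.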

How the data were processed

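The authors' deposited values are FPKM per gene. The submitters' processing notes name Cufflinks and mm9, and the aligner, annotation and versions were not given in the sources used here. The part of the genotype other than Ncr1Cre and 1 gene of the list of relatives are not reported here. FPKM are not counts, so limma 3.58.1 (R 4.3.3) with an intensity trend was run on log2(FPKM + 1) of the 11762 genes whose mean over the libraries reached 1 FPKM. P-values are two-sided, adjusted by the Benjamini-Hochberg method over all genes tested, with calls at an adjusted p under 0.05. A log2 fold change on this scale understates the change of low genes. With 2 libraries against 2 an exact permutation test cannot go below 0.333, so none was used. Errors are the SD of 2 libraries.

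Library totals were estimated from low values of genes with 1 transcript in GENCODE M21. Between 36.6% and 39.7% of them were whole fragments within 0.02, so totals are approximate. Of the gene identifiers, 21750 were in the reference name table. Adgre1 of the macrophage list was not matched. Promoter windows come from RefSeq.

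The 9 genes and all 12 other lists were chosen with earlier results of these data known. Named were all 9, every gene of the lists of other mesothelial genes and of relatives apart from that one, up to 6 tested genes with the smallest p of each other list, Ncr1, Klrb1c and Ptprc, and the 5 nearest genes. Other genes were named for being low, at 0 or not called, after their values were seen. Alternatives were other pseudocounts, filters and scalings, a replicate block and leaving out each library.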

Additional observations from a re-analysis of the deposited data

How the results depend on the processing

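The 9 genes stayed lower in Ncr1Cre in all 11 alternatives that kept them, with Bnc1 and Muc16 removed by the filter at 5 FPKM. Their median log2 difference of -1.47 was -1.65 after median rescaling, -1.62 after quantile normalization, -1.73 with equal FPKM totals per library and -1.48 to -1.41 when 1 library was left out. Of all tested genes, 3426 fell with equal totals, and 1351 to 1879 when 1 library was left out, against 2071. The 1351 came without replicate 1 of the control. Of the other mesothelial genes, 11 to 14 fell and 9 or 10 rose in every alternative. Genes that were not called changed sign in places, and the cause was not tested: Egr2 (-0.063 after median rescaling, -0.073 after quantile normalization, -0.12 with equal totals, and -0.36 to 0.55 when 1 library was left out), Podxl (-0.024 after quantile normalization and -0.049 with equal totals) and Bcl2 (-0.032 after quantile normalization).

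The replicate numbers share only a number. Differences between replicates correlated at 0.16 between the genotypes over genes, and the replicate block gave 6004 called genes against 5709 and left the median of the 9 genes at -1.47. Leaving out a library assumes that the lone library of that genotype varies like the others. Values near 1 FPKM, as in Bnc1 and Muc16, are the least precise.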
